A study of Mus musculus with 30 samples.

Results

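The step from embryonic stem cells (ESC) to Flk1+ mesoderm in wild type cells is described here from 4 of the 30 RNA-sequencing samples of the series, 2 of WT ESC and 2 of WT Flk1+ cells, chosen by their labels and not by any measured value. The study asks how the ubiquitous factors Sp1 and Sp3 take part in blood formation, and it followed E14 mouse ESC, the WT line, through 5 populations in 3 genotypes, with 2 samples of each. ESC were kept as undifferentiated cells with leukaemia inhibitory factor (LIF) and passed without fibroblast feeders before differentiation. Embryoid bodies were then grown without LIF, and Flk1+ cells were taken from them on a magnetic column with an antibody against Flk1. The other populations were haemogenic endothelium 1 and 2 (HE1, HE2) and progenitors, sorted after 2 days of blast culture of Flk1+ cells by Kit, Tie2 and CD41 protein. The mutant lines in the same design, Sp1dDBD cells that make Sp1 without its DNA-binding domain and Sp3KO cells that lack Sp3, enter only where the WT step is set against theirs.

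Flk1, the protein of the gene Kdr, is the main receptor for vascular endothelial growth factor. In the embryo, pluripotent epiblast cells pass through the primitive streak, lose their epithelial contacts and become mesoderm, a passage driven by BMP, Wnt, Nodal and FGF signals. Flk1 marks the part of that mesoderm that can give blood, endothelium, smooth muscle and heart, and embryoid bodies run through the same order of events in a dish. Because Flk1 was the gate, the level of Kdr describes the sort and is no finding.

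The labels were checked against defining genes first. Pou5f1, which encodes Oct4, was 501 and 489 FPKM (fragments per length of transcript and per depth of the library) in the 2 ESC samples and 27.4 and 19.6 FPKM in the 2 Flk1+ samples. Sox2, its partner, was 93.6 and 71.7 FPKM in ESC and 0.311 and 0.06498 FPKM in Flk1+ cells. Kdr was 0.322 and 0.297 FPKM in ESC and 192 and 209 FPKM in Flk1+ cells. The groups stood apart for each of these genes in the direction that their labels name. Mesp1, the factor of nascent mesoderm, was at most 0.0534 FPKM in ESC and 51.7 and 39.1 FPKM in Flk1+ cells. Pdgfra, a receptor of paraxial and cardiac mesoderm, was 0.0725 and 0.333 FPKM in ESC and 22.8 and 21.2 FPKM in Flk1+ cells. The plot of defining genes in each sample shows that the Flk1+ fraction carried mesoderm RNA together with a remainder of Pou5f1.

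**Figure D1:**
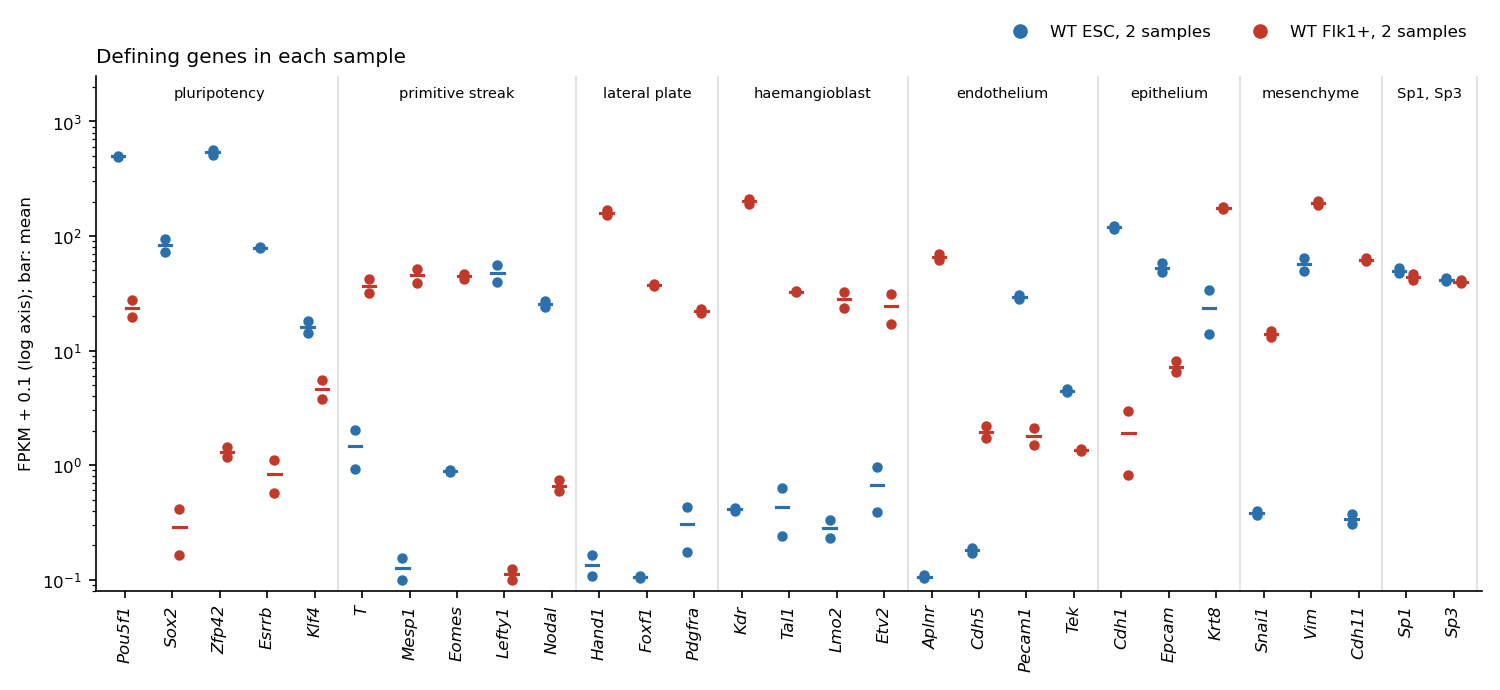
FPKM + 0.1 on a log axis for 29 defining genes in the 2 WT ESC samples (blue) and the 2 WT Flk1+ samples (red); bars are means. Samples of a population lie close together beside the distance between populations for most genes, and Sp1 and Sp3 lie at one level in all 4 samples.

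Pearson's r of log2(FPKM + 0.1) was taken across the 14525 genes above 1 FPKM in at least 1 of the 30 samples. It was 0.980 between the ESC samples, 0.989 between the Flk1+ samples and 0.795 to 0.820 between an ESC and a Flk1+ sample. Among genes with a mean above 10 FPKM, 92 of 6278 differed more than 2-fold between the ESC samples (1.47%) and 22 of 6284 between the Flk1+ samples (0.350%). ESC replicate 1 was the higher for keratin and histone genes given below. Between 398 and 474 genes were listed at exactly 0 in an ESC sample and between 740 and 782 in a Flk1+ sample. The number of reads behind a value is unknown, so the spread between samples is the only error available. The paper describes 2 biological replicates for each sample, and no label says whether these came from separate cultures. The p-values rest on the spread between the 2 samples of a group, pooled over the 15 groups of all 30 samples. That spread includes the later populations and the mutant lines. These are bulk samples, in which fewer cells of a type and less RNA per cell cannot be told apart.

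Of the 14525 genes above 1 FPKM in at least 1 of the 30 samples, 3985 rose (27.4%) and 3590 fell (24.7%) from ESC to Flk1+ cells, and 6950 did not pass (limma, Benjamini-Hochberg adjusted p under 0.05). With a fold above 2 as well, 2559 genes rose (17.6%) and 2161 fell (14.9%). Past 8-fold, 523 rose and 750 fell. By fold alone, with no test, a ratio of group means above 2 and a higher mean above 3 FPKM were required. Of the 14685 genes of the table, 3041 met this rule (20.7%), 1566 upwards and 1475 downwards. A switch from under 1 FPKM to over 10 FPKM was seen for 91 genes, and 161 genes went from over 10 to under 1 FPKM. The median log2 change of all genes tested was 0.03. Genes that rose past 2-fold had a median transcript length of 3580 bases and a GC content of 51.3%, those that fell past 2-fold 2956 bases and 50.8%, and all genes 3228 bases and 49.8%.

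**Figure D2:**
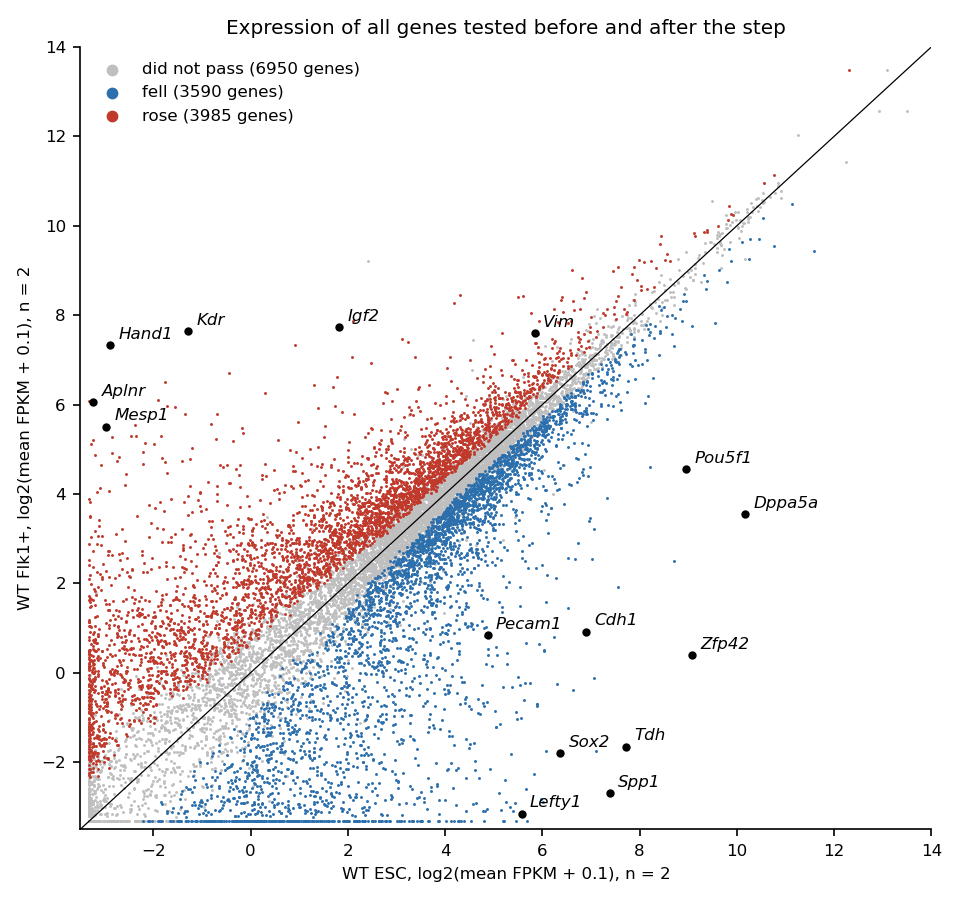
Mean level of each of 14525 genes in WT ESC (x axis) and WT Flk1+ cells (y axis), both as log2(mean FPKM + 0.1) with n = 2, coloured by whether the gene rose (red), fell (blue) or did not pass (grey). Hand1, Aplnr, Kdr and Mesp1 lie at the upper left, Zfp42, Tdh, Spp1 and Sox2 at the lower right, and the black line marks equal levels.

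Mesoderm transcription factors and vascular receptors led the genes that rose. Hand1, a factor of lateral plate and extraembryonic mesoderm, was 0.0628 and 0.00664 FPKM in ESC and 153 and 168 FPKM in Flk1+ cells (log2 change 10.25, SE 1.22, limma adjusted p = 9.34e-07). Aplnr, the apelin receptor of early mesoderm and vessels, went from 0.00864 and 0.00385 FPKM to 70.1 and 61.97 FPKM (log2 change 9.28, SE 0.31, limma adjusted p = 2.86e-14). Nrp1, a co-receptor of vascular endothelial growth factor, went from 0.161 and 0.228 FPKM to 86.7 and 93.8 FPKM (log2 change 8.27, SE 0.37, limma adjusted p = 1.56e-12). In all of these the lower Flk1+ sample was far above the higher ESC sample. Prdm6, a repressor known from smooth muscle, was listed at 0 in both ESC samples and at 55.2 and 79.2 FPKM in Flk1+ cells. The other genes among the 12 largest rises, beside Kdr and Mesp1, were Foxf1, Amer3, Vstm2b, Bmper, Asb4 and Tbx20, with log2 changes between 7.97 and 8.46.

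Genes known from undifferentiated ESC and the germ line led the genes that fell. Spp1, which encodes osteopontin, was 168 and 167 FPKM in ESC and 0.0663 and 0.0432 FPKM in Flk1+ cells (log2 change -10.08, SE 0.78, limma adjusted p = 3.12e-09). Tdh, the threonine dehydrogenase of mouse ESC, went from 212 and 209 FPKM to 0.381 and 0.0549 FPKM (log2 change -9.59, SE 0.55, limma adjusted p = 4.11e-11). Zfp42, also called Rex1 and a marker of naive ESC, went from 512 and 563 FPKM to 1.35 and 1.07 FPKM (log2 change -8.69, SE 0.64, limma adjusted p = 1.39e-09). Both samples of each population held to these levels, with no overlap. Morc1, Tcl1, Fam25c and Rpl39l were listed at 0 in both Flk1+ samples after 50.5 and 52.6, 39.4 and 33.6, 53.9 and 34.3 and 32.6 and 41.6 FPKM in ESC. Platr10, Fbxo15, Triml2, Lefty1 and AU018091 made up the 12, with log2 changes between -8.95 and -8.35.

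The promoters of Kdr, which was switched on, and Zfp42, which was switched off, are shown because Sp1 and Sp3 are known to bind the GC box. The 250 bases before each RefSeq transcription start are printed 5′ to 3′ on the gene's own strand, with every GGGCGG, the core of the GC box, in capitals in either orientation (CCGCCC is its reverse complement). The Kdr window lies on the minus strand at chr5:75978456-75978705 and the Zfp42 window on the minus strand at chr8:43307010-43307259 of GRCm38.p6, both upstream of the RefSeq start of exon 1. The GENCODE model of Kdr starts a few bases upstream of that point, so the last bases of its window fall inside that model.
Kdr: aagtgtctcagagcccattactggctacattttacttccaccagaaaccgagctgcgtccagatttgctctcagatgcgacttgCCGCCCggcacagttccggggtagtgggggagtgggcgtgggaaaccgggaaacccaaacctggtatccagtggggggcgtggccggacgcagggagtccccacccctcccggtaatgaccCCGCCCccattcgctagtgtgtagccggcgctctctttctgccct
Zfp42: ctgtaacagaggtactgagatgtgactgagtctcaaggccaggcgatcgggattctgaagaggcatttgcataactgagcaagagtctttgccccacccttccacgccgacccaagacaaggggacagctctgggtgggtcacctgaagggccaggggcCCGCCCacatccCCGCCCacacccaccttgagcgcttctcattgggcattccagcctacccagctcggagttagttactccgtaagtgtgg
Each window held 2 of these hexamers, and the GC content was 61.6% for Kdr and 58.4% for Zfp42, beside a median of 52.4% over 32851 RefSeq windows. At least 1 hexamer was found in 32.7% of those windows. Promoter windows were at hand for 11429 of the 14525 genes tested (78.7%), under the 80% set as the minimum, so the letters of risen and fallen genes were not compared. The hexamers describe these windows and say nothing of binding in these cells.

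**Figure D3:**
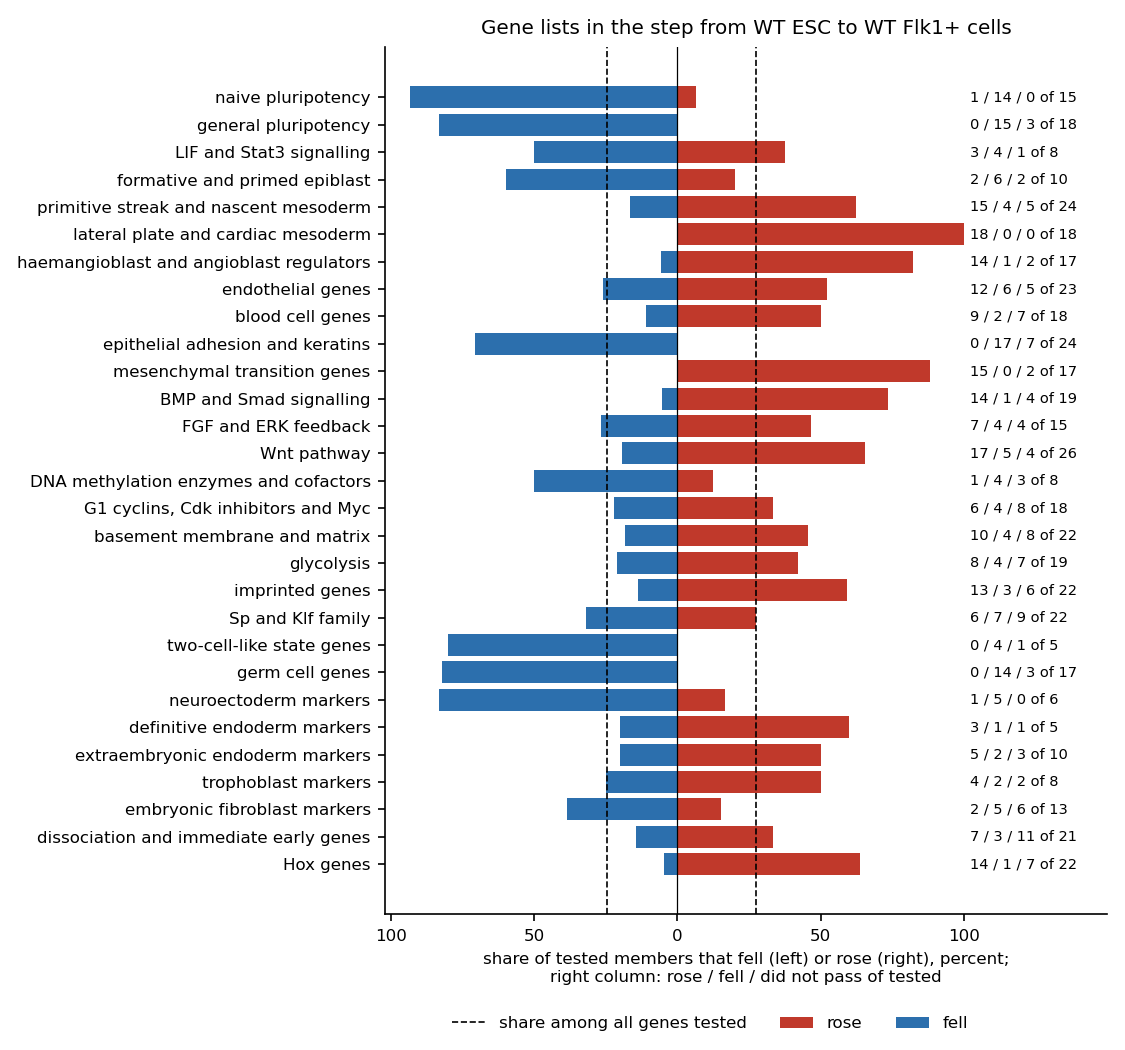
Share of the tested members of 29 gene lists that fell (blue, to the left) or rose (red, to the right) from WT ESC to WT Flk1+ cells; dashed lines mark the shares among all genes tested (24.7% and 27.4%). The column at the right gives how many members rose, fell and did not pass; all 18 lateral plate and cardiac genes rose and 14 of 15 naive pluripotency genes fell.

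Of the 15 genes of naive pluripotency, the state that LIF maintains, 14 fell and 1 rose, and their median log2 change was -6.45. Esrrb, a nuclear receptor of that network, was 79.98 and 77.8 FPKM in ESC and 1.01 and 0.469 FPKM in Flk1+ cells (log2 change -6.63, SE 0.41, limma adjusted p = 1.47e-10). Klf4, a zinc finger factor, was 14.3 and 17.9 FPKM in ESC and 5.38 and 3.65 FPKM in Flk1+ cells (log2 change -1.82, SE 0.32, limma adjusted p = 8.14e-05), the smallest fall among the 14 beside that of Prdm14. Dppa3 was 63.97 and 19.5 FPKM in the ESC samples, which differed from each other more than those of the other members, and at most 0.0351 FPKM in Flk1+ cells. The member that rose was Tbx3, a T-box factor that is used again in mesoderm, with 5.76 and 6.88 FPKM in ESC and 38.9 and 47.1 FPKM in Flk1+ cells (log2 change 2.74, SE 0.42, limma adjusted p = 1.95e-05).

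General pluripotency genes followed, with 15 of 18 fallen, none risen and a median log2 change of -5.18. Dppa5a fell from 1201 and 1099.7 FPKM to 11.8 and 11.5 FPKM (log2 change -6.62, SE 0.75, limma adjusted p = 4.66e-07). Utf1 fell from 24.8 and 27.2 FPKM to 0.189 and 0 FPKM (log2 change -7.26, SE 0.35, limma adjusted p = 3.67e-12). Pou5f1 kept a level of about 20 to 27 FPKM in Flk1+ cells, in contrast to Sox2 under 0.4 FPKM in the same samples (log2 change -4.41, SE 0.73, limma adjusted p = 4.61e-05 for Pou5f1 and log2 change -8.30, SE 0.61, limma adjusted p = 1.52e-09 for Sox2). The 3 members that did not pass were Lin28a, Sall4 and Trim71. Lin28a, which blocks let-7 maturation, was 89.5 and 135 FPKM in ESC and 139 and 142 FPKM in Flk1+ cells (log2 change 0.36, SE 0.21, limma adjusted p = 0.175), and it passed without ESC replicate 2 (limma adjusted p = 0.0366). Sall4 was 73.97 and 87.5 FPKM in ESC and 96.1 and 99.9 FPKM in Flk1+ cells (log2 change 0.28, SE 0.21, limma adjusted p = 0.277). Trim71 was 46.3 and 58.5 FPKM in ESC and 44.5 and 50.3 FPKM in Flk1+ cells, with overlapping samples (log2 change -0.14, SE 0.21, limma adjusted p = 0.623), and passed downwards after correcting each sample for GC and length (log2 change -0.49, limma adjusted p = 0.00917).

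Of 8 genes of LIF signalling, 3 rose (37.5%) and 4 fell (50%), beside 27.4% and 24.7% of all genes tested. Socs3, the feedback target of Stat3, fell from 34.8 and 21.1 FPKM to 1.81 and 2.02 FPKM (log2 change -3.76, SE 0.37, limma adjusted p = 8.36e-08). Stat3 itself fell from 22.6 and 26.4 FPKM to 11.9 and 10.5 FPKM (log2 change -1.12, SE 0.24, limma adjusted p = 0.000622). The receptor genes did not go the same way as the targets. Lifr rose from 21.2 and 27.8 FPKM to 44.6 and 52.3 FPKM (log2 change 0.99, SE 0.33, limma adjusted p = 0.0178), a call lost without ESC replicate 1 (limma adjusted p = 0.127), without Flk1+ replicate 2 (limma adjusted p = 0.103) or after correcting each sample for GC and length (limma adjusted p = 0.0982). Il6st, which encodes the gp130 subunit, was 22.2 and 21.6 FPKM in ESC and 26.2 and 26.2 FPKM in Flk1+ cells (log2 change 0.26, SE 0.12, limma adjusted p = 0.0874), and it passed upwards in the fit over the 12 ESC and Flk1+ samples (limma adjusted p = 0.0165). Of 10 genes of the formative and primed epiblast, the state between ESC and streak, 6 fell (60%) and 2 rose (20%). Fewer of them rose without ESC replicate 2 or either Flk1+ sample, and their median log2 change was -0.99. Otx2 fell from 23.7 and 19.1 FPKM to 3.53 and 1.92 FPKM (log2 change -2.98, SE 0.41, limma adjusted p = 5.22e-06) and Pou3f1, a POU factor of the epiblast, from 5.301 and 4.004 FPKM to 0.204 and 0.252 FPKM (log2 change -3.85, SE 0.41, limma adjusted p = 2.17e-07), while Lef1, a Wnt effector, rose from 3.403 and 9.29 FPKM to 30.4 and 28.2 FPKM (log2 change 2.36, SE 0.51, limma adjusted p = 0.000675).

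Genes of the primitive streak and nascent mesoderm rose in 15 of 24 cases, fell in 4 and did not pass in 5, with a median log2 change of 2.03. T, which encodes Brachyury, was 1.91 and 0.826 FPKM in ESC and 41.9 and 31.6 FPKM in Flk1+ cells (log2 change 4.74, SE 0.58, limma adjusted p = 1.21e-06). Eomes, a T-box factor upstream of Mesp1, was 0.772 and 0.802 FPKM in ESC and 46.6 and 41.9 FPKM in Flk1+ cells (log2 change 5.64, SE 0.45, limma adjusted p = 4.54e-09). Evx1, a factor of the posterior streak, was 0.0135 and 0.0619 FPKM in ESC and 29.9 and 30.6 FPKM in Flk1+ cells (log2 change 7.81, SE 0.56, limma adjusted p = 1e-09). All 3 were low in both ESC samples and above 29 FPKM in both Flk1+ samples. Lhx1, Wnt3 and Fgf8 rose with log2 changes of 6.53, 5.52 and 4.87.

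The 4 streak genes that fell belong to the Nodal and FGF pathways. Nodal, the TGF-beta family ligand that starts the streak, was 23.8 and 26.8 FPKM in ESC and 0.633 and 0.4904 FPKM in Flk1+ cells (log2 change -5.27, SE 0.42, limma adjusted p = 4.45e-09). Its inhibitors Lefty1 and Lefty2 were 55.4 and 39.6 FPKM and 70.9 and 60.3 FPKM in ESC, and 0.0244 and 0 FPKM and 1.81 and 0.778 FPKM in Flk1+ cells (log2 changes -8.72 and -5.66). Fgf17 fell with a log2 change of -6.27. The ligand and its inhibitors were thus high in both ESC samples and low in both Flk1+ samples. Of the 5 members that did not pass, Cer1, Wnt8a, Dll1, Cited1 and Foxc2, none had a mean above 3 FPKM in either population. Without Flk1+ replicate 2, Cer1 and Foxc2 passed upwards (limma adjusted p = 0.0071 and 0.0275).

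Lateral plate and cardiac mesoderm had the largest median change of the 29 lists, with 18 of 18 tested genes risen and a median log2 change of 6.93. Foxf1, a factor of splanchnic mesoderm, was 0.00717 and 0.00321 FPKM in ESC and 37.9 and 36.2 FPKM in Flk1+ cells (log2 change 8.46, SE 0.67, limma adjusted p = 3.65e-09). Tbx20, a cardiac T-box factor, was 0.145 and 0.192 FPKM in ESC and 54.9 and 81.3 FPKM in Flk1+ cells (log2 change 7.97, SE 0.64, limma adjusted p = 4.84e-09). Msx2 and Msx1, homeobox targets of BMP, were 59.1 and 66.1 FPKM and 28.04 and 28.4 FPKM in Flk1+ cells, with no ESC sample above 0.237 FPKM. Hand2 was listed at 0 in both ESC samples and at 13.9 and 15.5 FPKM in Flk1+ cells. The summed level of the 18 genes was 15.3 and 16.1 FPKM in ESC and 575 and 644 FPKM in Flk1+ cells.

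Regulators of the haemangioblast, the common precursor of blood and endothelium, rose in 14 of 17 cases with a median log2 change of 3.62. Without Kdr, which the gate chose, 13 of 16 rose with a median of 3.51. Tal1, the helix-loop-helix factor that blood formation requires, was 0.138 and 0.525 FPKM in ESC and 33.04 and 32.3 FPKM in Flk1+ cells (log2 change 6.41, SE 0.35, limma adjusted p = 2.18e-11). Lmo2, its partner in the same complex, was 0.1300 and 0.234 FPKM in ESC and 32.3 and 23.3 FPKM in Flk1+ cells (log2 change 6.64, SE 0.21, limma adjusted p = 2.63e-14). Etv2, an ETS factor upstream of both lineages, was 0.8595 and 0.287 FPKM in ESC and 31.4 and 16.99 FPKM in Flk1+ cells (log2 change 5.25, SE 0.46, limma adjusted p = 1.39e-08). The Flk1+ samples differed more for Etv2 than for Tal1, and for all 3 genes they lay above both ESC samples. Fli1 and Sox7 were lower in level, with 4.898 and 4.07 FPKM and 8.05 and 8.03 FPKM in Flk1+ cells (log2 changes 5.28 and 5.17). The member that fell was Tcf15, a factor of somitic mesoderm that ESC also express, from 18.8 and 21.9 FPKM to 0.988 and 0.543 FPKM (log2 change -4.61, SE 0.42, limma adjusted p = 2.84e-08). Ldb1, which bridges Tal1 complexes, was 46.1 and 47.6 FPKM in ESC and 45.3 and 46.6 FPKM in Flk1+ cells (log2 change -0.03, SE 0.14, limma adjusted p = 0.889), and Sox18 stayed under 0.6 FPKM in all 4 samples.

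Of 23 endothelial genes 12 rose (52.2%), 6 fell (26.1%, beside 24.7% of all genes tested) and 5 did not pass (median log2 change 0.66). Receptors of early vascular mesoderm rose with Aplnr and Nrp1 above, and Plxnd1 and Flt1 reached 7.68 and 7.52 FPKM and 5.804 and 4.48 FPKM (log2 changes 4.29 and 3.58). Cdh5, the cadherin of endothelial junctions, rose from 0.0702 and 0.0896 FPKM to 1.62 and 2.09 FPKM (log2 change 3.43, SE 0.30, limma adjusted p = 1.77e-08), a low level beside 402 and 501 FPKM in the HE1 samples. Pecam1, an adhesion molecule of both ESC and endothelium, fell from 28.2 and 30.2 FPKM to 1.39 and 1.99 FPKM (log2 change -4.05, SE 0.28, limma adjusted p = 6.1e-10). Tek, which encodes Tie2, fell from 4.48 and 4.27 FPKM to 1.22 and 1.29 FPKM (log2 change -1.72, SE 0.30, limma adjusted p = 8.22e-05). Cd34 fell from 1.63 and 2.76 FPKM to 0.319 and 0.261 FPKM (log2 change -2.51, SE 0.46, limma adjusted p = 0.00015), and Robo4, Notch4 and Rasip1 fell with log2 changes of -3.01, -3.16 and -0.86. In each of these 6 genes both Flk1+ samples were below both ESC samples. Dll4, Emcn, Cldn5, Apln and Esam did not pass and had no sample above 3 FPKM.

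Most blood cell genes were low in both populations. Of 18 tested, 9 rose (50%) and 2 fell (11.1%), beside 27.4% and 24.7% of all genes tested. The median log2 change of the 18 was 1.57, and 8 had a mean under 1 FPKM in both populations. Gfi1b, a repressor of the erythroid and megakaryocyte lineages, was at most 0.00105 FPKM in ESC and 1.85 and 2.09 FPKM in Flk1+ cells (log2 change 4.36, SE 0.38, limma adjusted p = 1.25e-08). Ikzf1 rose from 0.131 and 0.0494 FPKM to 3.23 and 3.78 FPKM (log2 change 4.27, SE 0.44, limma adjusted p = 1.52e-07) and Itga2b, which encodes CD41, from 0.162 and 0.0327 FPKM to 2.25 and 2.46 FPKM (log2 change 3.72, SE 0.47, limma adjusted p = 2.01e-06). Spi1, which encodes PU.1, was listed at 0 in both ESC samples and at 0.867 and 0.246 FPKM in Flk1+ cells. The embryonic globin Hbb-bh1 was listed at 0 in ESC and at 0.718 and 1.26 FPKM in Flk1+ cells, and the globins Hba-x and Hbb-y were listed at 0 in all 4 samples, beside 2745 and 1270.3 FPKM for Hba-x in the WT progenitors. Kit, which marks ESC as well as blood progenitors, fell from 17.6 and 14.8 FPKM to 4.91 and 5.84 FPKM (log2 change -1.57, SE 0.34, limma adjusted p = 0.000642).

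Epithelial genes fell and mesenchymal genes rose. Of 24 genes of epithelial adhesion and keratins, 17 fell, none rose and 7 did not pass (median log2 change -2.76). Cdh1, which encodes E-cadherin, fell from 123 and 114 FPKM to 2.85 and 0.724 FPKM (log2 change -6.25, SE 0.90, limma adjusted p = 9.72e-06). Epcam fell from 57.7 and 48.3 FPKM to 7.94 and 6.34 FPKM (log2 change -2.88, SE 0.61, limma adjusted p = 0.000547). Tight junction genes went with them, and Cldn6 and Cldn4 had log2 changes of -5.34 and -5.02. The 3 keratins of the list, Krt8, Krt18 and Krt19, were not among the genes that fell. Krt8 was 33.4 and 13.7 FPKM in ESC and 171 and 177 FPKM in Flk1+ cells (log2 change 3.02, SE 1.58, limma adjusted p = 0.118), and its partner Krt18 was 33.5 and 13.4 FPKM in ESC and 102 and 115 FPKM in Flk1+ cells (log2 change 2.35, SE 1.46, limma adjusted p = 0.191). For both keratins and for Dsp, a desmosome gene with 10.8 and 6.81 FPKM in ESC and 36.6 and 38.1 FPKM in Flk1+ cells, every Flk1+ sample was above every ESC sample. These errors come from the spread over all 30 samples. In the fit over the 12 ESC and Flk1+ samples Krt8, Krt18 and Dsp passed upwards (limma adjusted p = 0.000819, 0.00521 and 7.53e-05), and the count of the list was then 3 risen.

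Of 17 mesenchymal transition genes, 15 rose, none fell and 2, Sparc and Itga5, did not pass (median log2 change 3.11). Snai1, the repressor of E-cadherin, rose from 0.3002 and 0.269 FPKM to 14.8 and 13.1 FPKM (log2 change 5.19, SE 0.61, limma adjusted p = 7.88e-07). Cdh11, a mesenchymal cadherin, rose from 0.203 and 0.277 FPKM to 60.04 and 63.7 FPKM (log2 change 7.52, SE 1.02, limma adjusted p = 4.79e-06). Vim, the intermediate filament of mesenchyme, was already 49.9 and 64.7 FPKM in ESC and rose to 187 and 202 FPKM (log2 change 1.77, SE 0.18, limma adjusted p = 1.32e-07). Zeb2, Tgfb2, Twist1 and Tgfb1 rose with log2 changes between 4.10 and 4.62. Of 22 matrix genes 10 rose (45.5%) and 4 fell (18.2%, below the 24.7% of all genes tested). Fbn2, Lama4 and Has2 rose with log2 changes of 6.15, 5.06 and 4.57, and the collagen IV gene Col4a1 rose from 6.54 and 6.49 FPKM to 67.2 and 63.97 FPKM (log2 change 3.31, SE 0.25, limma adjusted p = 1.91e-09). Lama1, the laminin chain of the early embryo, fell from 15.01 and 13.4 FPKM to 3.38 and 2.48 FPKM (log2 change -2.25, SE 0.48, limma adjusted p = 0.000625), and Col18a1, Lamc1 and Lama5 fell with it.

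Signalling genes were read as ligands, receptors, targets and inhibitors. In the BMP and Smad list 14 of 19 rose and 1 fell (median log2 change 2.77). The ligands Bmp2 and Bmp7 were 0.00593 and 0.0164 FPKM and 1.06 and 0.431 FPKM in ESC and 17.3 and 15.5 FPKM and 19.9 and 22.9 FPKM in Flk1+ cells (log2 changes 7.21 and 4.77). The extracellular modulators Bmper and Nog rose with them, to 27.1 and 30.9 FPKM and 4.12 and 5.31 FPKM, and the intracellular inhibitor Smad6 rose from 0.6204 and 0.892 FPKM to 24.2 and 25.4 FPKM (log2 change 4.88, SE 0.26, limma adjusted p = 2.01e-11). The antagonist Chrd fell, at under 0.6 FPKM in all 4 samples, a call lost without ESC replicate 2 or either Flk1+ sample (limma adjusted p = 0.0689 to 0.167). Of the Id genes, targets of BMP, Id3 rose from 18.2 and 14.6 FPKM to 117 and 109 FPKM (log2 change 2.78, SE 0.29, limma adjusted p = 1.45e-07). Id1 was 24.5 and 18.99 FPKM in ESC and 43.2 and 31.6 FPKM in Flk1+ cells and did not pass (log2 change 0.77, SE 0.40, limma adjusted p = 0.116), but passed upwards in the fits over 12 and over 10 samples, with the replicate block and after correcting each sample for GC and length (limma adjusted p = 0.0181 to 0.0317). Id2 was 19.5 and 14.5 FPKM in ESC and 12.6 and 13.7 FPKM in Flk1+ cells (log2 change -0.35, SE 0.41, limma adjusted p = 0.501).

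In the Wnt list 17 of 26 rose and 5 fell (median log2 change 1.32). The amplifier Rspo3 was 0.125 and 0.0377 FPKM in ESC and 38.5 and 40.3 FPKM in Flk1+ cells (log2 change 7.81, SE 0.31, limma adjusted p = 3.1e-13), and its receptor Lgr5 was at most 0.00948 FPKM in ESC and 5.74 and 7.16 FPKM in Flk1+ cells (log2 change 5.95, SE 0.55, limma adjusted p = 3.2e-08). Lgr4, a related receptor, fell from 33.7 and 35.1 FPKM to 9.28 and 10.6 FPKM (log2 change -1.78, SE 0.23, limma adjusted p = 2.64e-06). Lgr4 was still the higher of the pair in both Flk1+ samples. Of 7 Frizzled receptor genes 5 rose and 2 fell, with log2 changes from 0.87 for Fzd10 to 4.25 for Fzd1 among those that rose, and of -1.43 for Fzd8 and -3.16 for Fzd5. Fzd10 did not pass without ESC replicate 1 (limma adjusted p = 0.120) or Flk1+ replicate 1 (limma adjusted p = 0.0600). Fzd7, the highest of them in Flk1+ cells, rose from 20.9 and 18.3 FPKM to 50.7 and 49.2 FPKM. The feedback inhibitors Nkd1 and Dkk1 rose to 26.5 and 25.9 FPKM and 7.11 and 8.09 FPKM (log2 changes 6.51 and 5.65), while the inhibitors Notum and Sfrp1 fell with log2 changes of -2.11 and -2.49. In the FGF list 7 of 15 rose (46.7%) and 4 fell (26.7%), beside 27.4% and 24.7% of all genes tested. The ligand Fgf3 rose from 0.312 and 0.723 FPKM to 54.4 and 56.1 FPKM (log2 change 6.57, SE 0.33, limma adjusted p = 8.9e-12), and the receptors Fgfr1 and Fgfr3 rose with log2 changes of 1.36 and 3.26. The ERK targets and feedback genes Spry4, Etv5, Etv4 and Spry2 fell, Spry4 from 40.5 and 38.5 FPKM to 3.76 and 4.21 FPKM (log2 change -3.28, SE 0.52, limma adjusted p = 2.98e-05). Etv4 did not pass without ESC replicate 2 (limma adjusted p = 0.076) or Flk1+ replicate 2 (limma adjusted p = 0.0553). Of the 9 targets and feedback genes listed these were the 4 that fell. Dusp4 rose from 22.6 and 8.62 FPKM to 41.9 and 36.3 FPKM (log2 change 1.47, SE 0.33, limma adjusted p = 0.00103; limma adjusted p = 0.0506 without ESC replicate 2), Spred1 rose from 18.3 and 18.9 FPKM to 29.7 and 32.4 FPKM (log2 change 0.74, SE 0.23, limma adjusted p = 0.0104; limma adjusted p = 0.0666 without Flk1+ replicate 2), and Spry1, Dusp6 and Etv1 did not pass.

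Genes active in the early embryo and germ line fell as groups. Of 17 germ cell genes, 14 fell and none rose (median log2 change -4.23), among them the X-linked homeobox genes Rhox6 and Rhox9, with 18.2 and 6.62 FPKM and 14.6 and 6.49 FPKM in ESC, and Hormad1, with 4.74 and 8.89 FPKM in ESC. Rhox6 and Hormad1 were listed at 0 in both Flk1+ samples, and Sycp3, which did not pass, was 18.4 and 15.1 FPKM in ESC and 13.99 and 19.5 FPKM in Flk1+ cells. Of 5 genes of the cleavage-like state that a few ESC in a culture enter at a time, 4 fell. Zscan4f was 16.3 and 26.5 FPKM in ESC and at most 0.0323 FPKM in Flk1+ cells (log2 change -7.50, SE 0.28, limma adjusted p = 1.36e-13); reads of the near-identical Zscan4 copies may be shared among them, so single copies are uncertain. Of 8 DNA methylation genes 4 fell (50%) and 1 rose (12.5%), beside 24.7% and 27.4% of all genes tested. Dnmt3l, the cofactor of new methylation, fell from 127 and 142 FPKM to 0.986 and 0.648 FPKM (log2 change -7.22, SE 0.34, limma adjusted p = 3.63e-12) and the oxidase Tet1 from 73.4 and 100.5 FPKM to 12.1 and 15.1 FPKM (log2 change -2.66, SE 0.31, limma adjusted p = 7.61e-07), while its relative Tet3 rose from 1.15 and 1.47 FPKM to 4.01 and 4.55 FPKM (log2 change 1.64, SE 0.25, limma adjusted p = 1.76e-05). The maintenance enzyme Dnmt1 was 79.8 and 89.5 FPKM in ESC and 97.8 and 93.1 FPKM in Flk1+ cells (log2 change 0.18, SE 0.21, limma adjusted p = 0.505).

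Imprinted genes rose in 13 of 22 cases and fell in 3 (median log2 change 1.45), or in 1 without ESC replicate 2 or Flk1+ replicate 1. Igf2, the paternally expressed growth factor, was 4.68 and 2.17 FPKM in ESC and 191 and 235 FPKM in Flk1+ cells (log2 change 6.01, SE 0.46, limma adjusted p = 2.34e-09). H19, the maternally expressed RNA beside it, was 4.73 and 1.72 FPKM in ESC and 46.9 and 77.5 FPKM in Flk1+ cells (log2 change 4.35, SE 0.60, limma adjusted p = 5.45e-06). Peg3 was 18.7 and 17.2 FPKM in ESC and 279 and 341 FPKM in Flk1+ cells (log2 change 4.09, SE 0.29, limma adjusted p = 1e-09). The partners of the Igf2 and H19 locus therefore rose together, with both Flk1+ samples above both ESC samples for each. Meg3 and Rian, from the locus of Dlk1, did not pass, at 18.03 and 21.5 FPKM and 14.8 and 19.3 FPKM for Meg3, whereas Dlk1 rose to 2.95 and 2.34 FPKM (log2 change 3.84, SE 0.99, limma adjusted p = 0.00299). Hox genes began to appear, with 14 of 22 risen (9 without ESC replicate 2 or without Flk1+ replicate 2), but 17 of the 22 had a mean under 1 FPKM in both populations. Those above 2 FPKM in both Flk1+ samples were the anterior genes Hoxb1, Hoxb2, Hoxb3 and Hoxd1, with 3.55 and 2.95, 5.36 and 4.35, 3.15 and 3.02 and 2.12 and 3.29 FPKM, after at most 0.0877 FPKM in any ESC sample.

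Cell cycle and glycolysis genes had median log2 changes near that of all genes, 0.22 and 0.26. Of 18 cyclins, inhibitors and Myc genes, 6 rose (33.3%) and 4 fell (22.2%), beside 27.4% and 24.7% of all genes tested. Ccne1, the cyclin of entry into S phase, fell from 98.7 and 155 FPKM to 25 and 23 FPKM (log2 change -2.36, SE 0.20, limma adjusted p = 9.07e-09). Myc rose from 15.1 and 20.7 FPKM to 54.3 and 59.3 FPKM (log2 change 1.68, SE 0.31, limma adjusted p = 0.00018) as Mycn fell from 49.7 and 49.3 FPKM to 26.7 and 27.8 FPKM (log2 change -0.86, SE 0.17, limma adjusted p = 0.000256). Ccnd2 rose from 2.69 and 11.4 FPKM to 33.1 and 34.3 FPKM, with ESC samples that stood far apart (log2 change 2.58, SE 0.76, limma adjusted p = 0.00798), and did not pass without ESC replicate 1 (limma adjusted p = 0.154). Of 19 glycolysis genes 8 rose (42.1%) and 4 fell (21.1%). Slc16a3, the lactate exporter, rose from 45.02 and 38.97 FPKM to 129 and 127 FPKM (log2 change 1.61, SE 0.26, limma adjusted p = 3.46e-05) and Ldha from 558 and 558 FPKM to 925 and 906 FPKM (log2 change 0.71, SE 0.13, limma adjusted p = 9.69e-05), while Hk2, a hexokinase, fell with a log2 change of -0.55. The 4 that fell were 1 without ESC replicate 1 and 2 without Flk1+ replicate 2. Gapdh, 531 and 512 FPKM in ESC and 469 and 455 FPKM in Flk1+ cells, did not pass (log2 change -0.18, SE 0.15, limma adjusted p = 0.358).

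In the family of Sp1 and Sp3, 6 of 22 Sp and Klf genes rose (27.3%) and 7 fell (31.8%), beside 27.4% and 24.7% of all genes tested. The median log2 change was -0.19, and fewer of them rose without ESC replicate 2. Sp1 was 47.3 and 52.4 FPKM in ESC and 41.2 and 46.05 FPKM in Flk1+ cells (log2 change -0.19, SE 0.17, limma adjusted p = 0.359). Sp3 was 40.2 and 42.7 FPKM in ESC and 40.8 and 38.7 FPKM in Flk1+ cells (log2 change -0.06, SE 0.19, limma adjusted p = 0.822). Neither passed, although both Sp1 values of Flk1+ cells were below those of ESC. With each sample corrected for GC content and gene length, Sp1 passed downwards, with a log2 change of -0.48 (limma adjusted p = 0.000672). Sp5 and Sp8, targets of Wnt in the streak, rose to 2.72 and 1.903 FPKM and 1.15 and 0.707 FPKM (log2 changes 2.18 and 2.91). Klf2 and Klf5, which hold naive pluripotency together with Klf4, fell from 53.5 and 34.4 FPKM and 31.1 and 27.6 FPKM to 0.647 and 0.233 FPKM and 1.01 and 1.66 FPKM (log2 changes -6.43 and -4.39).

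Markers of cells that the gate or the culture could have held were counted as well. Of 6 neuroectoderm markers above the filter, 5 fell (83.3%) and 1 rose (16.7%). Pax6 was 1.97 and 3.89 FPKM in ESC and at most 0.0634 FPKM in Flk1+ cells. The endoderm gene Sox17 rose only to 0.692 and 0.651 FPKM, and Foxa2, Afp and Hnf4a had no row in the table. Cxcr4, which the definitive endoderm list also holds, rose from 0.521 and 0.418 FPKM to 46.1 and 48.2 FPKM (log2 change 6.38). Gata4 and Gata6, which endoderm shares with cardiac mesoderm, rose to 38.5 and 39.5 FPKM and 21.1 and 22.2 FPKM (log2 changes 7.15 and 7.13). Definitive endoderm markers rose in 3 of 5 cases (60%) and fell in 1 (20%). Extraembryonic endoderm markers rose in 5 of 10 (50%), or in fewer without ESC replicate 2 or Flk1+ replicate 2, and fell in 2 (20%). Among all genes tested 27.4% rose and 24.7% fell. Of 8 trophoblast markers 4 rose (50%), led by Hand1, and 2 fell (25%). The trophoblast keratin Krt7 fell to at most 0.0496 FPKM. Fibroblast markers bear on feeders in the ESC samples. Of 13 tested, 2 rose (15.4%) and 5 fell (38.5%), beside 27.4% and 24.7% of all genes tested. Their summed level was 57.8 and 32.9 FPKM in ESC and 58.4 and 66.8 FPKM in Flk1+ cells. The defining genes Col1a1 and Postn were 1.57 and 0.766 FPKM and 0.03797 and 0.158 FPKM in ESC. Of 21 genes of cell dissociation, 7 rose (33.3%) and 3 fell (14.3%), beside 27.4% and 24.7% of all genes tested. In the fit over the 12 ESC and Flk1+ samples 6 fell. Their summed level was 1671 and 2106 FPKM in ESC and 918 and 880 FPKM in Flk1+ cells, and Hspa8 was among those that fell. Fos and Jun were 1.56 and 1.08 FPKM and 2.34 and 1.104 FPKM in ESC and 10.7 and 3.88 FPKM and 13.1 and 6.35 FPKM in Flk1+ cells, the higher values in Flk1+ replicate 1, and the part of the sort in their rise was not tested.

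Among the most abundant genes that changed more than 2-fold, Hsp90aa1 and Hspa8, heat shock proteins that ESC hold at high level, fell. Hsp90aa1 was 1976 and 4166 FPKM in ESC and 700 and 684 FPKM in Flk1+ cells (log2 change -2.05, SE 0.41, limma adjusted p = 0.000315). Hspa8 was 1521 and 1976 FPKM in ESC and 750 and 758 FPKM in Flk1+ cells (log2 change -1.20, SE 0.20, limma adjusted p = 6.5e-05). Both ESC samples were above both Flk1+ samples, although the ESC samples differed about 2-fold for Hsp90aa1. The 8 others rose and were the ribosomal RNA precursor Rn45s, Rpl36, Scarna10 and the histone genes Hist1h4d, Hist1h2bg, Hist1h1c, Hist1h1e and Hist1h2bc. Scarna10 was 309 and 69.8 FPKM in ESC and 563 and 517 FPKM in Flk1+ cells (log2 change 1.88, SE 0.70, limma adjusted p = 0.0311), and Hist1h1c was 410.1 and 191 FPKM and 581 and 604 FPKM. Without ESC replicate 2, which was below replicate 1 for them, Hist1h4d, Hist1h1c, Hist1h1e, Rpl36 and Scarna10 did not pass (limma adjusted p = 0.0922 to 0.435), and Rn45s did not pass with any 1 of the 4 samples left out (limma adjusted p = 0.0531 to 0.133). In the fit over the 4 samples alone Rn45s, Rpl36, Scarna10, Hist1h1c, Hist1h1e and Hist1h2bc did not pass (limma adjusted p = 0.0635 to 0.127), and Scarna10 did not pass in the fits over 12 and over 10 samples either (limma adjusted p = 0.0850 and 0.0652). Without either Flk1+ sample Scarna10 and Hist1h1c also lost the call (limma adjusted p = 0.0542 to 0.108). Reads of these multicopy or near-identical genes can be split among copies, so their values are uncertain. Quantile normalisation also sets values by rank. Rn45s was 5094 FPKM in both ESC samples and 12779 and 10321.5 FPKM in the Flk1+ samples. Its rise is therefore a shift of rank among the most abundant genes.

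The genes that rose were grouped by the WT population in which their mean was highest. Of the 3985 genes, 1809 (45.4%) had their highest WT mean in Flk1+ cells, 1118 (28.1%) in HE1, 344 (8.63%) in HE2 and 714 (17.9%) in progenitors. They were chosen for higher values in the same Flk1+ samples, which favours Flk1+ cells and leaves ESC out. Likewise 1628 of the 3590 genes that fell had their lowest WT mean in Flk1+ cells. Higher in Flk1+ cells than in each of ESC, HE1, HE2 and progenitors, with all 4 contrasts past the threshold, were 906 genes (6.24% of those tested), and lower than in each were 642 genes (4.42%). These contrasts share the Flk1+ samples, and without Flk1+ replicate 2 the first count was 574. Among the lists, 13 of 24 streak genes, 10 of 18 lateral plate genes, 8 of 19 BMP genes and 8 of 26 Wnt genes were highest in Flk1+ cells by this rule. In the haemangioblast list Etv2 was the 1 of 17, and in the endothelial list none of 23 was.

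The genes with the widest margin over every other WT population were Mesp1, Amer3, Cfc1, Vstm2b, Lhx1, Cxcr4, Eomes, Evx1os, Cdh4 and Bmp5. Cfc1, a co-receptor for Nodal also called Cryptic, was 0.788 and 0.475 FPKM in ESC, 99.4 and 108 FPKM in Flk1+ cells and under 0.001 FPKM in every later sample. Cxcr4, the receptor of the chemokine Cxcl12, was 0.521 and 0.418 FPKM in ESC, 46.1 and 48.2 FPKM in Flk1+ cells and 0.935 and 0.5403 FPKM in HE1. Bmp5 was at most 0.00182 FPKM in ESC, 13.1 and 14.8 FPKM in Flk1+ cells and 0.349 and 0.148 FPKM in HE1. Among the 10 WT samples, only the 2 Flk1+ samples held these 3 genes above 1 FPKM. Evx1os runs antisense to Evx1, and the counting is not stated to use strand, so their reads cannot be told apart.

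**Figure D4:**
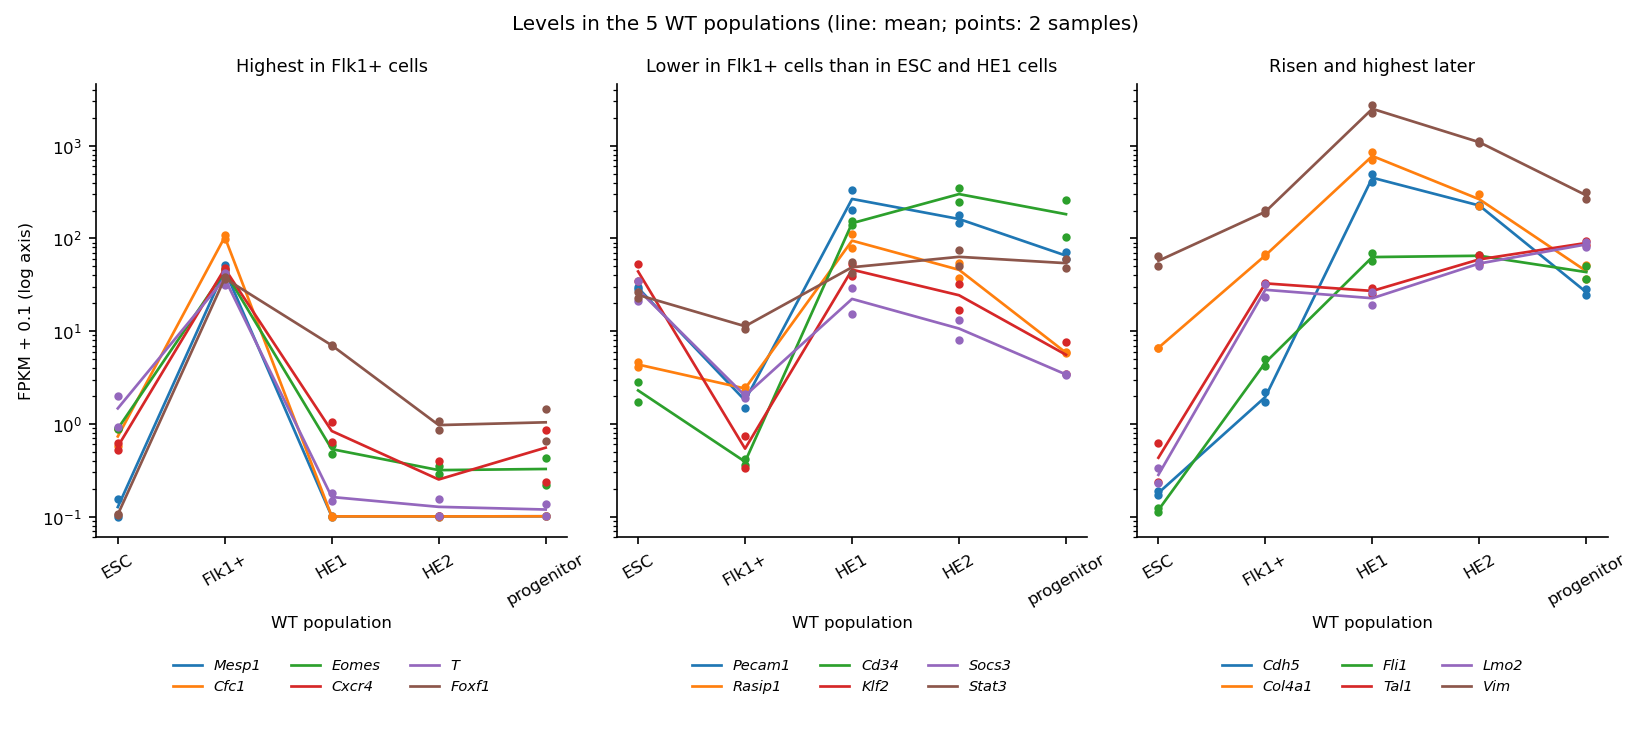
FPKM + 0.1 on a log axis in the 5 WT populations (lines join means; points are the 2 samples). Genes of the left panel peak in Flk1+ cells, those of the middle panel are lower there than in ESC and HE1, and those of the right panel rise in Flk1+ cells and are highest in a later population.

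Other genes went down before they went up. Pecam1, at 1.39 and 1.99 FPKM in Flk1+ cells, was 202 and 331 FPKM in HE1 (log2 of Flk1+ minus HE1 -7.20, SE 0.28, limma adjusted p = 4.84e-13). Cd34 was 0.319 and 0.261 FPKM in Flk1+ cells and 139 and 153 FPKM in HE1 (-8.55, SE 0.46, limma adjusted p = 5.55e-11). Klf2, a flow-responsive factor of endothelium as well as a naive factor, was 0.647 and 0.233 FPKM in Flk1+ cells and 39.5 and 52.4 FPKM in HE1 (-6.51, SE 0.49, limma adjusted p = 3.1e-09). For each of these genes both Flk1+ samples were below both ESC and both HE1 samples. Tek, Kit and Itga2b encode the proteins by which the later populations were sorted, so their later levels describe the sort. Kdr was 209 and 303 FPKM in HE1, 127 and 174 FPKM in HE2 and 38.4 and 58.3 FPKM in progenitors, and Col4a1 reached 700 and 850.2 FPKM in HE1.

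The WT step was set against the same step in the mutant lines, which share no sample with it. In the Sp3KO samples Sp3 was 4.47 and 5.08 FPKM in ESC and 7.11 and 7.79 FPKM in Flk1+ cells, far below WT, while Sp1 in Sp1dDBD samples was 36.01 and 40.5 FPKM in ESC and 27.2 and 28.9 FPKM in Flk1+ cells, which does not test a deletion inside the protein. The step differed between WT and Sp1dDBD cells for 253 genes (1.74%), 115 with the higher change in WT and 138 with the lower. Between WT and Sp3KO cells it differed for 215 genes (1.48%), 70 higher and 145 lower in WT. Without Flk1+ replicate 2 of WT these counts were 74 and 42, without its replicate 1 they were 120 and 103, without ESC replicate 2 of WT the first was 134, and without ESC replicate 1 the second was 131. Each genotype is 1 line here, so genotype and line cannot be told apart. The median log2 change of the lateral plate list was 6.93 in WT, 6.56 in Sp1dDBD and 6.03 in Sp3KO cells, and that of naive pluripotency genes was -6.45, -6.47 and -6.27. General pluripotency genes had -5.18, -4.36 and -3.73 in the same order, and streak genes 2.03, 2.51 and 3.71; these medians were not tested against each other.

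Cfc1, Amer3 and Pdlim4, which are in none of the mesoderm lists, rose further in WT cells than in at least 1 mutant line. Of the 18 lateral plate and cardiac genes, none passed the test of a difference in step from either mutant line. That does not show equal steps, as the errors were wide for some. Hand1 was 153 and 168 FPKM in WT Flk1+ cells, 33.9 and 45.1 FPKM in Sp1dDBD and 45.3 and 56.3 FPKM in Sp3KO cells. Its differences of steps were 2.09 and 3.31 on the log2 scale, with an SE of 1.73. Bmp5 had -0.31 against Sp1dDBD and 1.25 against Sp3KO cells (SE 0.52). Cfc1 reached 99.4 and 108 FPKM in WT Flk1+ cells, 15.1 and 37.1 FPKM in Sp1dDBD and 16.7 and 31.3 FPKM in Sp3KO cells, and the WT step was larger than the Sp1dDBD step by 3.62 on the log2 scale, SE 0.54, limma adjusted p = 0.00222, and than the Sp3KO step by 2.81 on the log2 scale, SE 0.54, limma adjusted p = 0.0134. Amer3, a scaffold protein of the Wnt pathway, reached 31.2 and 38.3, 11.1 and 13.5 and 9.31 and 8.904 FPKM in the same order, and its step differed from Sp1dDBD cells by 1.55; it was listed at 0 in both Sp3KO ESC samples. Pdlim4 reached 44.1 and 53.4, 7.400 and 9.396 and 10.1 and 11.6 FPKM, and passed against Sp3KO cells (3.07 on the log2 scale, SE 0.75, limma adjusted p = 0.0435). Without Flk1+ replicate 2 of WT the differences of Cfc1 and Pdlim4 from Sp3KO cells and of Amer3 from Sp1dDBD cells did not pass (limma adjusted p = 0.0660, 0.185 and 0.184). For these genes both WT Flk1+ samples were above all 4 mutant Flk1+ samples. Cdkn1a, the inhibitor p21, rose in WT from 5.74 and 3.81 FPKM to 7.78 and 9.500 FPKM, whereas its levels went from 10.03 and 8.304 FPKM to 4.504 and 3.11 FPKM in Sp1dDBD and from 7.78 and 7.66 FPKM to 4.64 and 4.03 FPKM in Sp3KO cells. The difference of steps was 2.13 on the log2 scale, SE 0.28, limma adjusted p = 0.000689 for Sp1dDBD and 1.69 on the log2 scale, SE 0.28, limma adjusted p = 0.00388 for Sp3KO cells.

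Streak and vascular genes were among those whose signed log2 change was lower in WT, which means a smaller rise, a larger fall, or a fall beside a rise in the mutant. Of 24 streak genes 5 differed from Sp3KO cells, Sp5, Lefty2, Dll1, Wnt8a and Cer1, each with the lower signed change in WT. Lefty2 fell in both lines, with log2 changes of -5.66 in WT and -2.03 in Sp3KO cells. The count was 1, Sp5, without Flk1+ replicate 2 of WT and in the fit over the 12 ESC and Flk1+ samples, 2 without ESC replicate 1, 3 without ESC replicate 2 and 12 with a pseudocount of 1. Sp5 was 2.72 and 1.903 FPKM in WT Flk1+ cells and 25.1 and 20.5 FPKM in Sp3KO Flk1+ cells (-5.14 on the log2 scale, SE 0.74, limma adjusted p = 0.00158). Otx2, an epiblast gene, fell in WT to 3.53 and 1.92 FPKM and was 20.9 and 23.1 FPKM in Sp3KO Flk1+ cells (-2.94 on the log2 scale, SE 0.58, limma adjusted p = 0.015), a difference that did not pass without Flk1+ replicate 2 (limma adjusted p = 0.104), without ESC replicate 1 (limma adjusted p = 0.0542) or in the fit over 12 samples (limma adjusted p = 0.0569). Of 23 endothelial genes 3 differed from Sp1dDBD cells, Tek, Icam2 and Cd34, and Cdh5 and Flt4 differed as well from Sp3KO cells. With any 1 WT sample left out these 3 passed against Sp1dDBD cells, and against Sp3KO cells Icam2, Flt4 and Cd34 did, while Icam2 alone passed there with a pseudocount of 1. Icam2, an adhesion molecule of endothelium, was 0.259 and 0.2796 FPKM in WT, 3.25 and 3.01 FPKM in Sp1dDBD and 2.47 and 2.35 FPKM in Sp3KO Flk1+ cells, with a difference of -3.14 from Sp1dDBD cells, and was listed at 0 in both Sp3KO ESC samples. Tek was 1.22 and 1.29 FPKM in WT, 4.14 and 8.94 FPKM in Sp1dDBD and 3.31 and 3.31 FPKM in Sp3KO Flk1+ cells, with differences of -2.56 and -1.83. Cd34 was 0.319 and 0.261, 0.723 and 2.14 and 1.22 and 1.34 FPKM in the same order, but WT ESC also started higher, at 1.63 and 2.76 FPKM against 0.326 and 0.206 and 0.381 and 0.387 FPKM. Kdr itself reached 171 and 189.5 FPKM in Sp3KO Flk1+ cells and differed in step from WT by -1.53 on the log2 scale, SE 0.37, limma adjusted p = 0.0418, beside ESC levels of 0.322 and 0.297 FPKM in WT and 0.0316 and 0.0235 FPKM in Sp3KO cells. With a pseudocount of 1 that difference was -0.20 (limma adjusted p = 0.909), and it did not pass with any 1 WT sample left out (limma adjusted p = 0.0800 to 0.133).

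**Figure D5:**
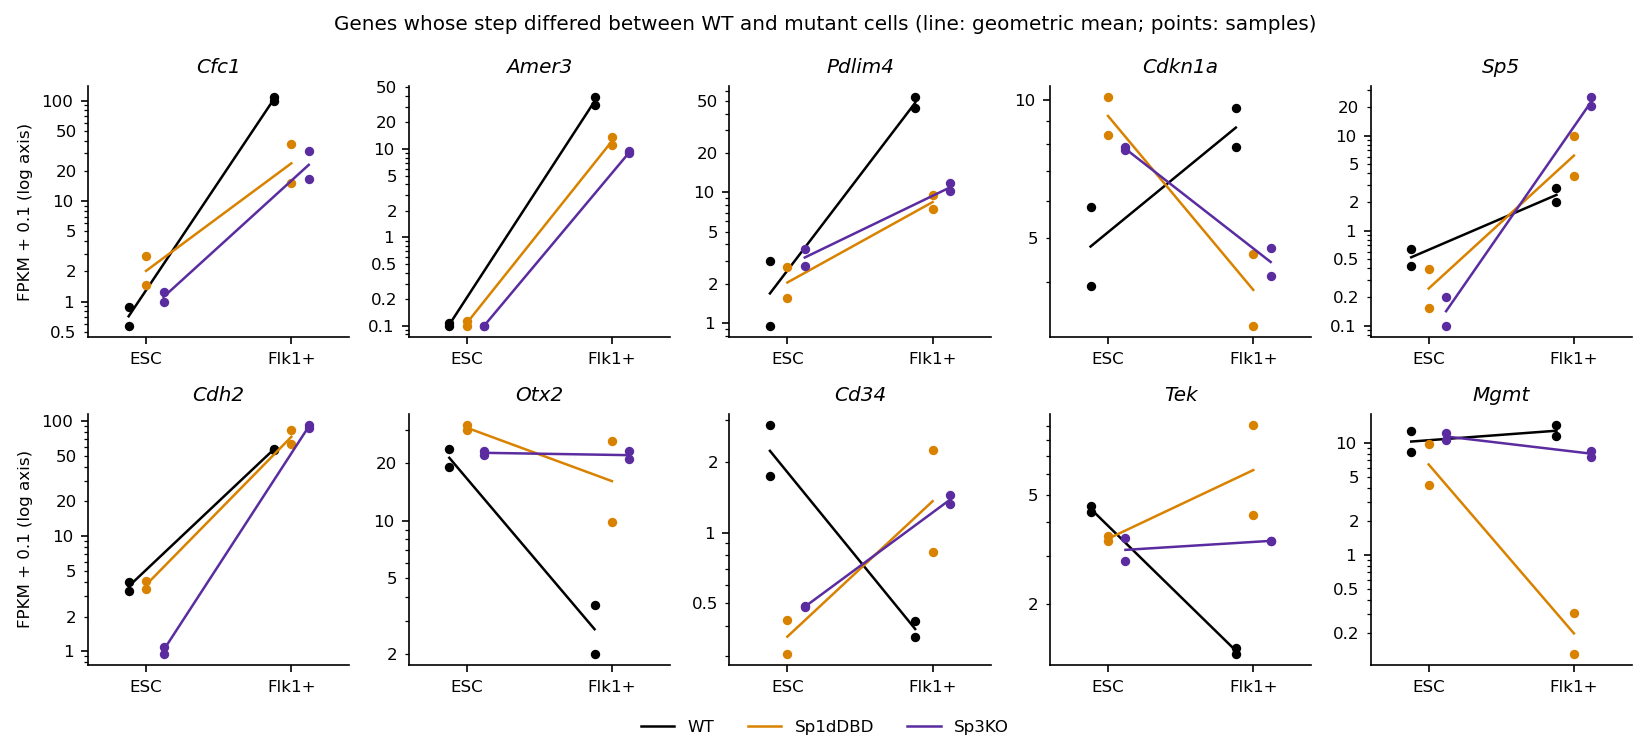
FPKM + 0.1 on a log axis in ESC and Flk1+ cells of WT (black), Sp1dDBD (orange) and Sp3KO (purple) lines for 10 genes whose step differed from WT in at least 1 mutant; lines join geometric means and points are the 2 samples. Cfc1, Amer3 and Pdlim4 reach higher levels in WT Flk1+ cells, Otx2, Cd34 and Tek end lower there, and Mgmt is low in Sp1dDBD Flk1+ cells.

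Further genes outside the mesoderm lists differed as well. Mgmt, a DNA repair enzyme, was 12.7 and 8.23 FPKM in WT ESC and 11.4 and 14.4 FPKM in WT Flk1+ cells, and fell in Sp1dDBD cells from 9.79 and 4.11 FPKM to 0.203 and 0.0324 FPKM, a difference of 5.33 on the log2 scale, SE 0.50, limma adjusted p = 2.59e-05. Aspg, an asparaginase, rose in WT from 2.22 and 0.8695 FPKM to 5.84 and 6.06 FPKM and was 0.471 and 0.325 FPKM in ESC and 0.0479 and 0.0602 FPKM in Flk1+ cells of the Sp1dDBD line, a difference of 3.69 on the log2 scale, SE 0.67, limma adjusted p = 0.00759. The long non-coding RNA Platr5 was 5.64 and 3.11 FPKM in WT ESC and listed at 0 in both WT Flk1+ samples, against 0.181 and 0 FPKM and 0.564 and 0.0948 FPKM in Sp1dDBD cells. Rps6ka4, a stress-activated kinase, differed from Sp3KO cells by 3.63 on the log2 scale, SE 0.54, limma adjusted p = 0.00186, with 3.17 and 4.33 FPKM in Sp3KO ESC and 0.241 and 0.465 FPKM in Sp3KO Flk1+ cells. Nkx2-9 was 0.523 and 0.567 FPKM in WT ESC and 6.16 and 5.800 FPKM in Sp3KO ESC, and was listed at 0 in both Flk1+ samples of each.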

How the data were processed

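RNA was measured by stranded total RNA sequencing after removal of ribosomal RNA, in 15 groups of 2 samples (5 populations, 3 genotypes). Per the labels and methods, the authors used Trimmomatic for trimming, HISAT2 2.1.0 for alignment (mm10) and StringTie 1.3.3 for expression. The methods keep genes that reached 1 FPKM somewhere in the series, and the values of the deposited FPKM table were made to share 1 distribution by quantile normalisation, so a shift of all genes in a sample is not visible, and its depth is unknown. The columns were matched to samples by name. FPKM were analysed as log2(FPKM + 0.1), where folds of low genes are understated, over the 14525 of 14685 genes that exceeded 1 FPKM in the table. A mean per group was fitted to all 30 samples, and contrasts were tested with limma 3.58.1 (eBayes with intensity trend) in R 4.3.3, with Benjamini-Hochberg adjustment over the genes tested and a threshold of 0.05. An exact permutation of 2 against 2 samples cannot go below a two-sided p of 0.333. Symbols were matched to GENCODE M21 for length and GC (14558 of 14685), and figures and tables used Python 3.11.15. The fitting code was tested on simulated data. WT ESC and WT Flk1+ samples with the same replicate number did not deviate together (correlation 0.00265), so the step was not paired. The same correlation was 0.195 for Sp1dDBD and 0.0257 for Sp3KO cells, and 0.408 to 0.450 among the later WT populations, which come from blast cultures.

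Named genes were the defining and the most changed members of the lists, the 12 largest rises and falls, the 10 genes most above every other WT population, the 3 largest differences from each mutant in each direction and the 10 most abundant genes changed over 2-fold. Those known by a Gm number are not named. Id3, Dusp4, Spred1, Spry1, Dusp6, Etv1, Krt19, Icam2, Flt4 and the Frizzled genes other than Fzd1 and Fzd5 were added after their values were seen, as was the haemangioblast count without Kdr. Lists and genes were chosen with earlier results of these data known.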

Additional observations from a re-analysis of the deposited data

Results flagged for a closer look

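Each gene here changed from ESC to Flk1+ cells by a different amount in WT and in a mutant line (test of the difference of steps; the value is the log2 change in WT minus that in the mutant, so that a negative value means a lower signed change in WT). Differences in which a group was listed at 0 in both samples are left out. Of the 32 differences of named genes, 12 passed with each of the 4 WT samples left out in turn, and 9 under every alternative that kept them. The first were Mgmt (5.33 on the log2 scale, SE 0.50, limma adjusted p = 2.59e-05), Aspg (3.69), Cdkn1a, Cfc1, Cd34, Icam2 and Tek against Sp1dDBD cells, and Cdkn1a, Cd34, Flt4, Rps6ka4 and Sp5 against Sp3KO cells. Of these, Cd34 and Flt4 did not pass against Sp3KO cells with a pseudocount of 1 (limma adjusted p = 0.0594 and 0.0542), nor Cdkn1a in the fit over 12 samples (limma adjusted p = 0.0566). Cdkn1a had 2.13 against Sp1dDBD and 1.69 against Sp3KO cells. Rps6ka4 had 3.63 against Sp3KO cells.

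Among genes of mesoderm signalling, Cfc1 had 3.62 against Sp1dDBD and 2.81 against Sp3KO cells, and Amer3 had 1.55 against Sp1dDBD cells. Smad6, the BMP inhibitor, had 1.78 and 1.71: it was 24.2 and 25.4 FPKM in WT, 20.6 and 23.6 FPKM in Sp1dDBD and 29.1 and 31.3 FPKM in Sp3KO Flk1+ cells, and 0.6204 and 0.892, 2.33 and 2.64 and 2.88 and 3.68 FPKM in ESC in the same order. With a pseudocount of 1 the Smad6 differences were 1.16 and 1.01 (limma adjusted p = 0.0815 and 0.124). Neither was among those that passed with each WT sample left out. Pdlim4 had 3.07 against Sp3KO cells. In the streak list Sp5 had -5.14, Lefty2 -3.63, Dll1 -3.43 and Wnt8a -2.70 against Sp3KO cells, and Cer1 had -3.18 against Sp1dDBD cells. Without Flk1+ replicate 2 of WT, these differences other than that of Sp5 did not pass (limma adjusted p = 0.0794 to 0.242). Dll1 was 1.296 and 0.586 FPKM in WT and 3.65 and 6.55 FPKM in Sp3KO Flk1+ cells. The epiblast gene Otx2 had -2.94 against Sp3KO cells, and Prdm14 had 2.15 against Sp1dDBD cells.

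Among vascular and blood genes, Cd34 had -4.42 against Sp1dDBD and -4.02 against Sp3KO cells, Icam2 had -3.14 against Sp1dDBD cells, Tek had -2.56 and -1.83, and Flt4, a receptor of lymphatic and early vessels, had -2.35 against Sp3KO cells. The Tek difference from Sp3KO cells did not pass with any 1 WT sample left out (limma adjusted p = 0.0710 to 0.128). Cdh5 had -1.90 against Sp3KO cells, where it was 5.42 and 4.85 FPKM in Flk1+ cells beside 1.62 and 2.09 FPKM in WT. With a pseudocount of 1 the Cdh5 difference was -1.18 (limma adjusted p = 0.111). Kdr, the gene of the gate, had -1.53 and Gfi1b 2.45 against Sp3KO cells. With a pseudocount of 1 these were -0.20 and 0.82 (limma adjusted p = 0.909 and 0.243), and neither passed with any 1 WT sample left out (limma adjusted p = 0.0580 to 0.133). The ERK feedback gene Dusp6 had -2.08 against Sp3KO cells. Further differences were those of H19 (3.38), Ccne1 (-1.34) and Ldha (-0.82) against Sp1dDBD cells and of Zscan4f (-1.66) against Sp3KO cells. None of these differences, nor that of Dusp6, was among those that passed with each WT sample left out. H19 also did not pass in the fit over the 12 ESC and Flk1+ samples (limma adjusted p = 0.0788).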

How the results depend on the processing

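No named gene that passed in the main fit or under an alternative reversed its direction between them. Changes of sign among genes that passed in neither were not counted. Of the 185 named genes that passed in the WT step, 167 passed under every alternative that kept them, and 18 lost the call under some; of the 41 that did not pass, 16 passed under some, such as Cited1 with a pseudocount of 1 (limma adjusted p = 0.00185). Across alternatives other than leaving out a sample, 2948 to 4429 genes rose and 2882 to 4078 fell. Leaving out 1 WT sample gave 3214 to 3451 risen and 2805 to 3240 fallen genes, 574 to 824 genes higher and 438 to 586 lower in Flk1+ cells than in every other WT population, and 74 to 246 (Sp1dDBD) and 42 to 178 (Sp3KO) genes whose step differed from WT. The counts for Sp1dDBD and Sp3KO were 407 and 458 with a pseudocount of 1, and 144 and 120 among genes above 3 FPKM in 1 of the 4 samples, where fewer genes were tested; for Sp3KO the count was 341 with the correction for GC content and length. With the replicate number as a block (replicate block) they were 479 and 464, while 4421 genes rose and 3977 fell; the numbers do not pair WT ESC with WT Flk1+ samples, so the block is given here alone. By fold alone, 2804 genes rose and 2463 fell with no minimum mean, 624 and 770 with a fold above 4, and 1509 to 1736 and 1412 to 1578 with 1 sample left out. The causes were not tested. Other counts over all genes moved by less than 1.5 times. Of 812 list counts under alternatives 43 moved by more, most of them counts of a few genes; risen Hox genes numbered 8 with a pseudocount of 1. Same-numbered samples of the 3 blast culture populations deviated together in WT (correlation 0.408 to 0.450) and Sp1dDBD cells (0.458 to 0.695). In Sp3KO cells they did so less (0.0597 to 0.174). The Flk1+ samples of Sp1dDBD cells also deviated with their blast culture samples (0.348 to 0.425), and their ESC samples less (0.0794 to 0.261). The fit over all 30 samples therefore overstates its degrees of freedom. Over the 10 WT samples 3770 genes rose and 3356 fell, and over the 4 samples alone 3974 and 3606. A sample left alone in its group is assumed to vary like the others. The depth, and with it the counting error of low values, is unknown.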

Other observations

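Among the 642 genes lower in WT Flk1+ cells than in every other WT population, those with a wide margin included Anxa1, Lgals9, Thbs1, Cpt1a, Plaur, Smagp, S100a4, Cltb and Pecam1, a list drawn up after their values were seen. Thbs1, which encodes thrombospondin 1, was 13.3 and 11.8 FPKM in ESC, 0.364 and 0.238 FPKM in Flk1+ cells, 125 and 76.5 FPKM in HE1 and 92.4 and 117 FPKM in progenitors. Plaur, the urokinase receptor, was 7.12 and 5.55 FPKM in ESC, 0.160 and 0.137 FPKM in Flk1+ cells and 17.8 and 10.6 FPKM in HE1. Both genes were at their lowest in both Flk1+ samples. Cpt1a, which brings fatty acids into mitochondria, was 11.1 and 11.4 FPKM in ESC, 0.0441 and 0.0702 FPKM in Flk1+ cells and 2.44 and 4.53 FPKM in HE1, so that ESC held the highest values.

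Other markers behaved as follows. Trh, a neuropeptide gene listed among endoderm markers, was 526 and 305 FPKM in ESC and 7.06 and 4.06 FPKM in Flk1+ cells (log2 change -6.20, SE 0.47, limma adjusted p = 2.2e-09). Plac1, a placental gene, was at most 0.0172 FPKM in ESC and 7.59 and 10.2 FPKM in Flk1+ cells, and 21.7 and 35.8 FPKM in HE1. Fbln2, a matrix gene of the fibroblast list, was 2.31 and 3.21 FPKM in ESC and 35.6 and 40.9 FPKM in Flk1+ cells (log2 change 3.76, SE 0.79, limma adjusted p = 0.000556).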
